A study of Mus musculus with 6 samples.

Results

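The nuclear genes for subunits of the mitochondrial respiratory chain and ATP synthase were followed in trunks of mouse embryos with and without Arid3b, a DNA-binding protein of the AT-rich interaction domain family. Members were chosen by gene symbol alone, namely the Ndufa, Ndufab, Ndufb, Ndufc, Ndufs and Ndufv genes, Sdha to Sdhd, the Uqcr genes, Cyc1, Cycs, the Cox4 to Cox8 genes and the Atp5 genes. The rule found 86 genes with 117 probes among the 20021 gene symbols on the array, and 84 of these genes, with 114 probes, were bright enough to be tested among 19795 genes in all. Cox7b2 and Cox8c were not well above background on any array and were not tested. By complex, the tested members comprised 37 of complex I, 4 of complex II, 9 of complex III, cytochrome c, 16 of the 18 complex IV genes on the array, and 17 of ATP synthase, also called complex V.

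Both groups were trunks of embryos at embryonic day 9.5, 1 group wild type and the other Arid3b-null, with 3 one-colour Agilent arrays each. Each array carried RNA of 4 pooled embryos of 1 genotype, 24 embryos in all, so the spread between replicates is the spread between pools. The trunk piece started at the otic vesicle, kept the forelimbs and held every tissue of that region. In such bulk RNA, fewer cells of a type and less RNA per cell cannot be told apart. The allele, the strain and the sex of the embryos are not given in the sources used here. The scanner files name 3 slides, each with the wild-type and the Arid3b-null array of the same replicate number. The 75th percentile of the spot signal was between 611 and 844 intensity units on the 6 arrays. Arid3b itself fell to 31.0% of the wild-type level, from 2.24 ± 0.31 (SD, n = 3) to 0.55 ± 0.10 (SD, n = 3) on the log2 scale explained below, and its other 2 probes changed by -1.90 and -3.23. All 8 marker genes of trunk and forelimb were well above background, and 3 of 5 forebrain and midbrain markers were bright enough to be tested.

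The respiratory chain sits in the inner mitochondrial membrane. Complex I takes electrons from NADH and complex II takes them from succinate. Both pass them through ubiquinone to complex III, from which the small soluble protein cytochrome c carries them to complex IV, where oxygen is reduced to water. Complexes I, III and IV pump protons, and ATP synthase uses the return of these protons to make ATP. A small number of subunits in each complex hold the redox centres or catalytic sites, while many small accessory subunits stabilise the complex and its assembly. Some complex IV subunits exist as pairs of genes, 1 used widely and the other in particular tissues such as lung, heart, skeletal muscle or testis. All members described here are nuclear genes, and the subunits encoded by mitochondrial DNA were not analysed here.

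Levels are given as log2 of the background-subtracted signal minus the 75th percentile of the same array, and are compared between arrays for 1 gene, never between genes. A change is the Arid3b-null mean minus the wild-type mean on this log2 scale, and "lower" or "higher" means a Benjamini-Hochberg adjusted p under 0.05 in limma's two-sided test over all 19795 genes. Of all genes tested, 12.9% were lower and 13.6% higher in the Arid3b-null trunks, 26.6% in all. Among the 84 respiratory chain members, 19 were lower (22.6%), 5 were higher (5.95%) and 60 did not pass. The change was below 0 in 68 of the 84 members (81.0%), against 53.5% of all genes, and its median was -0.27, against -0.04. Most changes were small: 2 of the 19 lower members, Ndufab1 and Cycs, and 1 of the 5 higher ones, Cox4i2, changed at least 2-fold. In 46 members (54.8%) every Arid3b-null array lay below every wild-type array, against 23.1% of all genes, and in 6 members every Arid3b-null array lay above, against 23.0%.

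The 3 Arid3b-null pools did not differ equally from the wild-type mean. Over the members, the median difference was -0.15 in Arid3b-null replicate 1, -0.29 in replicate 2 and -0.39 in replicate 3, beside 0.02, -0.04 and -0.05 over all genes. Replicate 3 was the lowest Arid3b-null array in 63 members (75%, against 44.9% of all genes), and replicate 1 the highest in 64 (76.2%, against 36.7%). Within slides, the median change of the members was -0.13, -0.25 and -0.41 on slides 1, 2 and 3. Arid3b-null replicate 3 had the lowest share of spots well above background, 61.6%, while the wild-type arrays had 63.3% to 68.8%. Whether this share has a part in the low values was not tested.

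**Figure D1:**
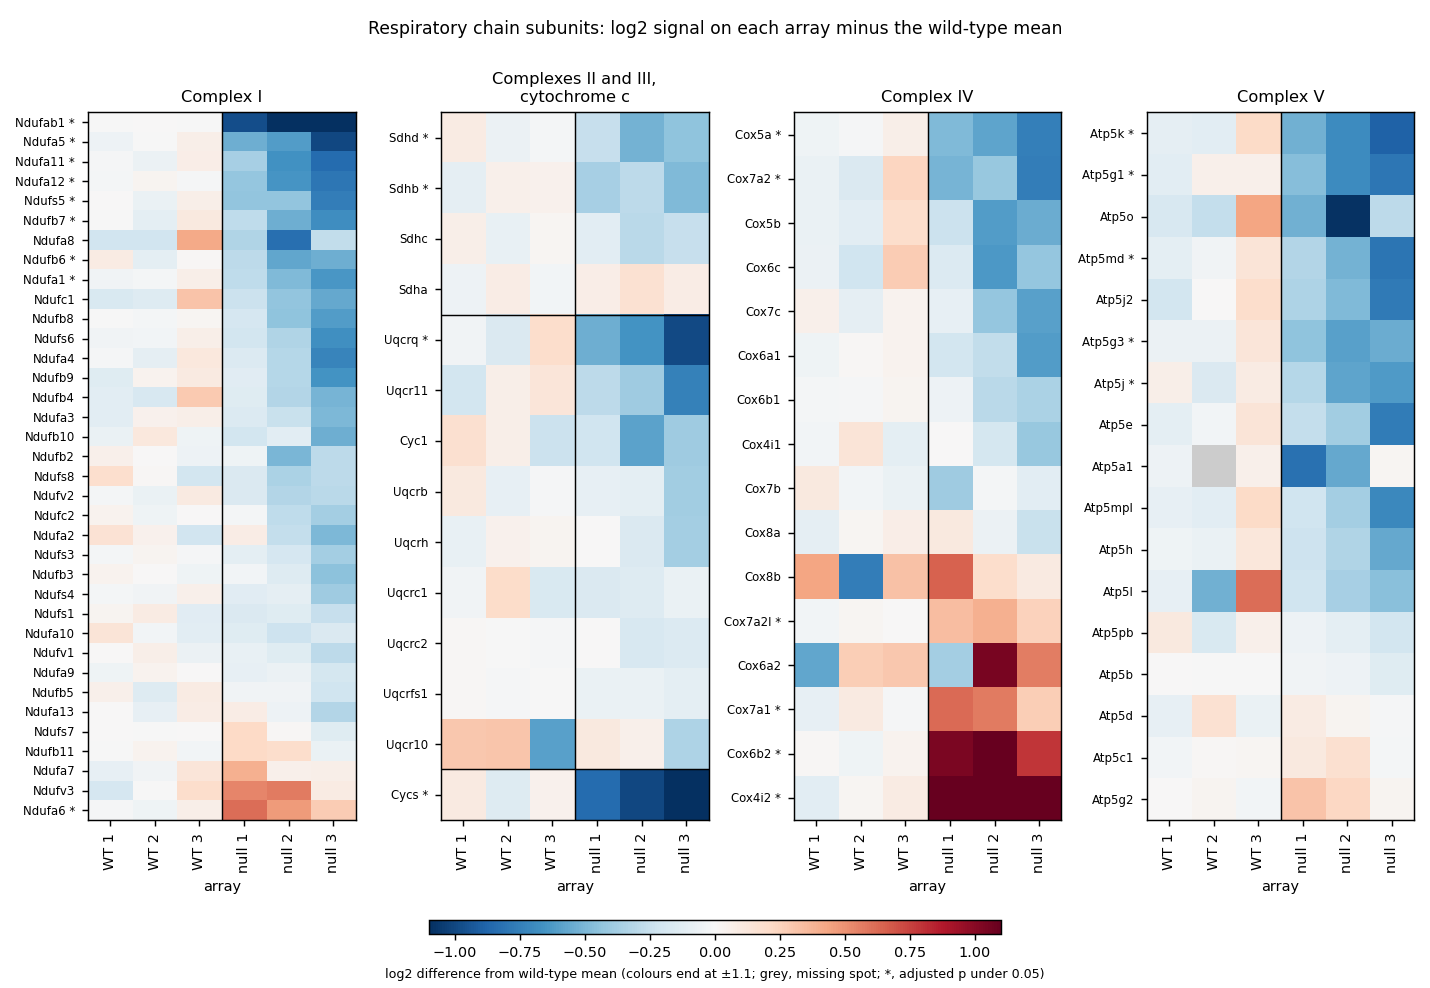
Heat map of the log2 signal of 83 of the 84 tested members on the 3 wild-type (WT) and 3 Arid3b-null arrays, as the difference from the wild-type mean of the same gene, with blue for lower, red for higher, grey for a missing spot and an asterisk for an adjusted p under 0.05. The Arid3b-null columns are mostly blue, with replicate 3 the lowest Arid3b-null array in 63 of the 84, and Cox4i2 and Cox6b2 of complex IV are red on all 3 Arid3b-null arrays.

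Many of these calls were lost when 1 array was left out, as were many calls over the whole array. There, 1205 to 2038 genes were then lower, against 2561 with every array kept, and 1660 to 2047 higher, against 2695. The number of members called lower was 7 without wild type replicate 1, 10 without replicate 2 and 8 without replicate 3. Among the Arid3b-null arrays, leaving out replicate 1, 2 or 3 gave 20, 10 or 11. The number called higher was then 2 in each case, except 4 without Arid3b-null replicate 3. With no filter on dim probes, which raised the number of genes tested to 32530, 20 of the 24 calls were lost (limma adjusted p = 0.0545 to 0.168). Quantile normalization lost 5 calls, among them Atp5j, Ndufa1 and both of complex II, and scaling to the array median lost 4. With the slide as a block, 14 members were lower and 2 higher, with 9 of the 24 calls lost and 1 gained. Ndufab1, Cycs, Cox4i2 and Cox6b2 kept their calls under 14 of the 15 alternative settings. The exception was a background correction (normexp with the local background) in which 12 spots far below their background set the fit, and there limma called 0 of 84 members lower and 0 higher, with 1 lower and 5 higher at an unadjusted p under 0.05. Without those 12 spots, a setting chosen after the data were seen, 24 members were lower and 4 higher.

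Some members, whether lower, higher or not passed, share a sequence feature upstream of their start site. Nuclear respiratory factor 1 (NRF1), a known activator of respiratory chain genes, binds a palindromic GC-rich site, and its core GCATGCGC was searched on both strands in the 250 bases before each start. RefSeq promoters of assembly GRCm38.p6 were matched for 69 of the 84 tested members. The core was present in 9 of the 69 (13.0%), against 2.56% of all 27025 genes with a promoter. Those 27025 include genes that were not tested here, and the share among tested genes was not computed. It stood before 4 of 18 lower members, 1 of 4 higher members and 4 of 47 members that did not pass. Because these genes carry the motif and changed, their upstream stretches are shown. They are Atp5k (chr5:108434400-108434649, minus strand), Cycs (chr6:50566570-50566819, minus strand), Ndufa11 (chr17:56717512-56717761, plus strand), Sdhb (chr4:140961021-140961270, plus strand) and Ndufa6 (chr15:82354292-82354541, minus strand). The first 4 were lower and Ndufa6 was higher in the Arid3b-null trunks. The calls of Ndufa11, Sdhb and Ndufa6 were lost when certain single arrays were left out, as given below. Each stretch is written 5′ to 3′ on the strand of the gene and ends at the base before the start site. Capitals mark the NRF1 core, which overlaps its own reverse complement in Atp5k and Ndufa11. In Cycs and Ndufa11 they also mark TGACGTCA, the cyclic AMP response element, and in Cycs CACGT, the reverse of the core bound by hypoxia-inducible factors.
Atp5k: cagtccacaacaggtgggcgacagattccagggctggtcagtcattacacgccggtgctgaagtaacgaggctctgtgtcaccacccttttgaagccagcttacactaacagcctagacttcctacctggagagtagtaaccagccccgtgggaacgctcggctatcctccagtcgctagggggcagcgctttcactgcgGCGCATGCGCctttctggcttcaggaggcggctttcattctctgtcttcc
Cycs: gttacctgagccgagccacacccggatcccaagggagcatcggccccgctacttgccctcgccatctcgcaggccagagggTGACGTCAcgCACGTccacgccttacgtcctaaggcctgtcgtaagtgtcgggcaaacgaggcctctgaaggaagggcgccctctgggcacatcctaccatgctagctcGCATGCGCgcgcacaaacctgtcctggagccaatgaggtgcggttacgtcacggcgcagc
Ndufa11: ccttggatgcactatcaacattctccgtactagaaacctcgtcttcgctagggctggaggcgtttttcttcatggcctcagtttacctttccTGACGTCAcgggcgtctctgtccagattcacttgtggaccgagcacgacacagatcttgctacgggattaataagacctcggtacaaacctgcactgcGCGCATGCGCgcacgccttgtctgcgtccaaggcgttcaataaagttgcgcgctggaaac
Sdhb: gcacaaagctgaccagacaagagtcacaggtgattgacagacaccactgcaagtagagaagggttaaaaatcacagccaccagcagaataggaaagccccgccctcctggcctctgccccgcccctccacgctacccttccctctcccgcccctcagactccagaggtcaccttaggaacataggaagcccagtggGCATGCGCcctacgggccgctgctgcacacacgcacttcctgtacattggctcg
Ndufa6: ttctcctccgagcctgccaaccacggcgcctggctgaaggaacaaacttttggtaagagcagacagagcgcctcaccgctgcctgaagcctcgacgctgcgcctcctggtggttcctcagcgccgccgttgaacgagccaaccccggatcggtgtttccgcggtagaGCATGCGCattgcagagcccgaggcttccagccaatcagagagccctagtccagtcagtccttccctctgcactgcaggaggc

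Other motifs were searched in the same windows, on both strands, and matches of different motifs may share bases. The ETS core CCGGAAG, which GABP binds, was present in 12 of the 69 members (17.4%) and in 7.83% of the same 27025 genes. TGACGTCA was found in 5 members (7.25%, against 1.77%), the hypoxia-factor core ACGTG in 15 (21.7%, against 18.5%) and the YY1 core AAGATGGC in 1 (1.45%, against 1.83%). A match describes the letters of a window and shows no binding.

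In complex I, 8 of 37 tested members were lower (21.6%, against 12.9% of all genes) and 1 was higher (2.70%, against 13.6%). The change was below 0 in 31, and the median was -0.26. Ndufab1, the mitochondrial acyl carrier protein and an accessory subunit of complex I, had the largest fall of all members. Its level was 0.98, 0.99 and 0.98 in wild type replicates 1, 2 and 3, and 0.01, -0.29 and -0.49 in the Arid3b-null replicates. The groups lay far apart, with the highest Arid3b-null array below the lowest wild-type array. The change was -1.24 (SE 0.14), a 2.36-fold decrease with a limma adjusted p of 0.0024.

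The other 7 lower members of complex I fell between 1.38-fold and 1.65-fold. Ndufa5, an accessory subunit of the matrix arm, was at 4.98, 5.03 and 5.10 in wild type and at 4.50, 4.42 and 4.03 in the Arid3b-null trunks. This was a change of -0.72 (SE 0.15, limma adjusted p = 0.0149), and its second probe changed by -0.91. Ndufa12, also of the matrix arm, was at 5.16, 5.22 and 5.17 against 4.76, 4.53 and 4.39, a change of -0.62 (SE 0.12). Ndufa11, an accessory subunit of the membrane arm whose upstream stretch is printed above, was at 2.66, 2.61 and 2.75 against 2.30, 2.01 and 1.83, a change of -0.63 (SE 0.14). No Arid3b-null array of these 3 genes reached its wild-type range. Ndufs5 and Ndufb7, small proteins on the side of the intermembrane space, changed by -0.54 and -0.50. The membrane-arm subunits Ndufb6 and Ndufa1 changed by -0.47 each.

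Against this direction, Ndufa6 rose. It is an accessory subunit of the LYR family that binds the acyl carrier protein Ndufab1 within the complex. Its level was 3.09, 3.06 and 3.16 in wild type and 3.71, 3.57 and 3.38 in the Arid3b-null trunks, a change of 0.45 (SE 0.12, limma adjusted p = 0.0344). No array of 1 group reached into the range of the other. The RNAs of these 2 partner proteins changed in opposite directions. The call of Ndufa6 was lost with the slide as a block (limma adjusted p = 0.0634).

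Complex I genes were sorted into catalytic and accessory subunits by hand with their values known, so the counts are a description, and the difference between both kinds was not tested. Among the 7 subunits that carry the flavin, the iron-sulphur clusters or the quinone site, none was lower or higher in limma's test, and 1 was lower at an unadjusted p under 0.05. Their median change was -0.18, with 5 of the 7 below 0 and 4 with every Arid3b-null array below every wild-type array. Over all genes these shares were 53.5% and 23.1%. Ndufs8, which holds iron-sulphur clusters, changed by -0.26. The flavin-bearing Ndufv1 changed by -0.17 and the large iron-sulphur subunit Ndufs1 by -0.18. The 30 accessory subunits, which include the 8 lower members, had a median of -0.31. Several calls in complex I were lost when 1 array was left out. Ndufa1, Ndufa11, Ndufb6 and Ndufb7 lost the call without any 1 of the 3 wild-type arrays and without Arid3b-null replicate 2 or 3 (limma adjusted p = 0.0516 to 0.116). Ndufs5 lost it without any 1 wild-type array (0.0526 to 0.0786), Ndufa12 without wild type replicate 1 (0.0504) and Ndufa6 without any 1 wild-type array or Arid3b-null replicate 1 or 2 (0.0627 to 0.106). With the slide as a block, Ndufa1 and Ndufb7 did not pass (limma adjusted p = 0.0642 and 0.0627).

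**Figure D2:**
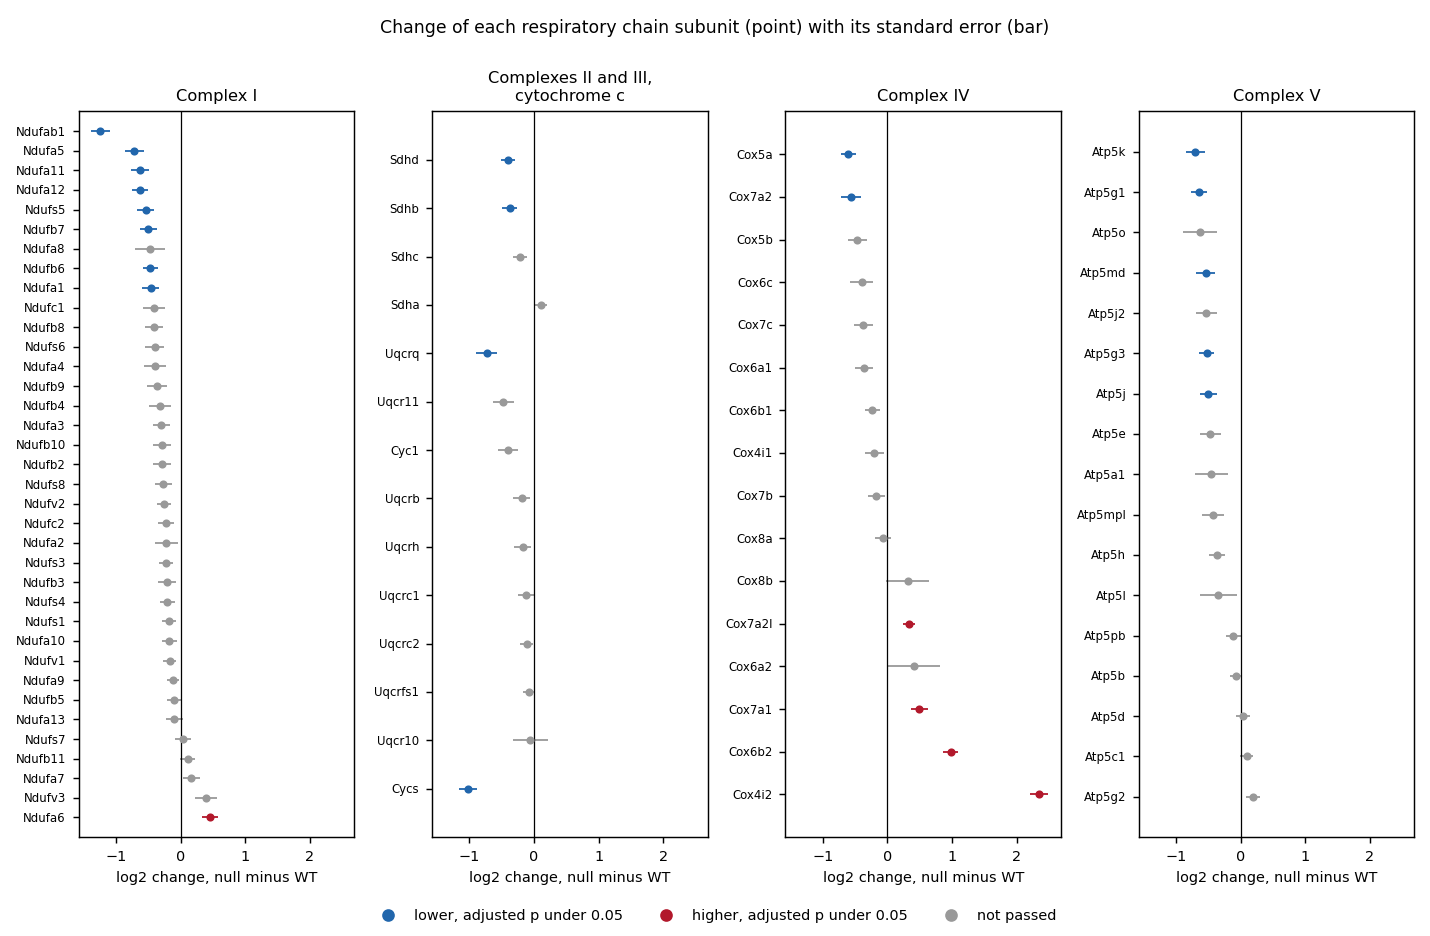
Log2 change (Arid3b-null minus wild type) of the same 83 members, as a point with its standard error as a bar, ordered by size within the complexes, with members lower in blue, members higher in red and members that did not pass in grey. Ndufab1 at -1.24 and Cycs at -1.02 lie farthest to the left, and Cox4i2 at 2.35 farthest to the right.

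Complex II, which is also the succinate dehydrogenase of the citric acid cycle, had 2 lower members among 4 (50%, against 12.9% of all genes). Its median was -0.30. Sdhb, the iron-sulphur subunit, was at 4.99, 5.15 and 5.14 in wild type and at 4.73, 4.80 and 4.61 in the Arid3b-null trunks. Its second probe changed by -0.48 (limma adjusted p = 0.0272 over all probes). Sdhd, a membrane anchor, was at 3.58, 3.42 and 3.47 against 3.24, 2.97 and 3.05. Both sets of arrays lay apart, with changes of -0.38 (SE 0.11) and -0.40 (SE 0.12), or falls of 1.30-fold and 1.32-fold. Sdhc, the other anchor, changed by -0.22 and did not pass. The flavin subunit Sdha had the only change above 0, 0.11, and did not pass. Both calls were close to the threshold (limma adjusted p = 0.0434 for Sdhb and 0.0441 for Sdhd). Sdhb lost it without any 1 of the 6 arrays (0.0644 to 0.116), and Sdhd without any 1 wild-type array or Arid3b-null replicate 2 or 3 (0.0812 to 0.146). With the slide as a block they were at 0.0729 and 0.0524, and both calls were also lost under median scaling, quantile normalization and in the authors' deposited values.

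In complex III, all 9 changes were below 0, against 53.5% of all genes, with a median of -0.18. This complex had 1 lower member (11.1%, near the 12.9% of all genes). Uqcrq, a small subunit of the complex, was at 5.43, 5.31 and 5.66 in wild type and at 4.93, 4.81 and 4.47 in the Arid3b-null trunks. The groups did not overlap, and the fall was 1.66-fold (change -0.73, SE 0.16, limma adjusted p = 0.0189). Without wild type replicate 1 or 3 the adjusted p of Uqcrq was 0.0585 or 0.0523. The Rieske iron-sulphur subunit Uqcrfs1 changed by -0.08 and cytochrome c1, encoded by Cyc1, by -0.40, and neither passed. Uqcr10, with the smallest change, -0.06, was at 4.76, 4.77 and 3.86 in wild type and at 4.57, 4.52 and 4.13 in the Arid3b-null trunks. Its value in wild type replicate 3 stood below those of all other arrays, and the groups overlapped. Its other 2 probes had no such array and changed by -0.38 and -0.55, the second of these with a limma adjusted p of 0.0383 over all probes.

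Cycs, which encodes the somatic form of cytochrome c, the carrier between complexes III and IV and a trigger of apoptosis when released, fell 2.03-fold. Its level was 4.75, 4.51 and 4.70 in wild type and 3.81, 3.65 and 3.43 in the Arid3b-null trunks. The gap between the groups was wider than the range within either. The change was -1.02 (SE 0.14, limma adjusted p = 0.0037), and a second probe changed by -1.24. On its remaining probe, no Arid3b-null array was well above background. Its upstream stretch, printed above, holds the NRF1 core, the cyclic AMP response element and the hypoxia-factor core.

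Complex IV was divided between its widely used subunits and its tissue-restricted isoforms. Of 16 tested members, 2 were lower (12.5%, near the 12.9% of all genes) and 4 higher (25%, against 13.6%). The median was -0.19. The genes were sorted into these kinds by hand after their values were known, so the division is a description. Of the 11 widely used subunits, 2 were lower, 1 was higher and the median was -0.36. All 5 tested isoforms restricted to some tissues had changes above 0, and 3 of them were higher, with a median of 0.49.

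Cox4i2 had the largest rise of all members. It encodes the alternative form of subunit 4, known from lung and from cells at low oxygen, and stands in for the usual form Cox4i1. Its level was -1.43, -1.28 and -1.22 in wild type and 1.30, 0.94 and 0.87 in the Arid3b-null trunks. The 2 groups stood farther apart than the arrays within either. The change was 2.35 (SE 0.15), a 5.09-fold increase with a limma adjusted p of 0.00039. Cox4i1 was at 6.28, 6.44 and 6.20 against 6.31, 6.11 and 5.89, and its groups overlapped (change -0.20, SE 0.14, adjusted p = 0.335).

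Cox6b2, the testis form of subunit 6b, rose 1.97-fold. It was at 0.12, 0.07 and 0.15 in wild type and at 1.15, 1.23 and 0.90 in the Arid3b-null trunks, with no overlap (change 0.98, SE 0.12, limma adjusted p = 0.0029). The usual form Cox6b1 changed by -0.24 (SE 0.12) and did not pass. In the subunit 7a pair both forms changed, in opposite directions. Cox7a1, the heart and muscle form, went from -0.84, -0.65 and -0.76 to -0.13, -0.18 and -0.48, a change of 0.49 (SE 0.13, limma adjusted p = 0.0352). Cox7a2, the form used elsewhere, went from 4.39, 4.31 and 4.70 to 3.95, 4.05 and 3.70, a change of -0.56 (SE 0.15, limma adjusted p = 0.0370). Neither gene had overlapping groups.

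The other isoform pairs did not pass. Cox6a2 and Cox8b, both forms of heart and skeletal muscle, changed by 0.41 (SE 0.40) and 0.31 (SE 0.33), with wide spread and overlapping groups. Cox6a2 was at -4.05, -3.21 and -3.18 in wild type and at -3.86, -2.44 and -2.91 in the Arid3b-null trunks. Their usual partners Cox6a1 and Cox8a changed by -0.36 (SE 0.14) and -0.07 (SE 0.13). The direction of the Cox8a and Cox8b changes turned when 1 array was left out, to 0.02 for Cox8a without Arid3b-null replicate 3 and to -0.07 for Cox8b without wild type replicate 2.

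**Figure D3:**
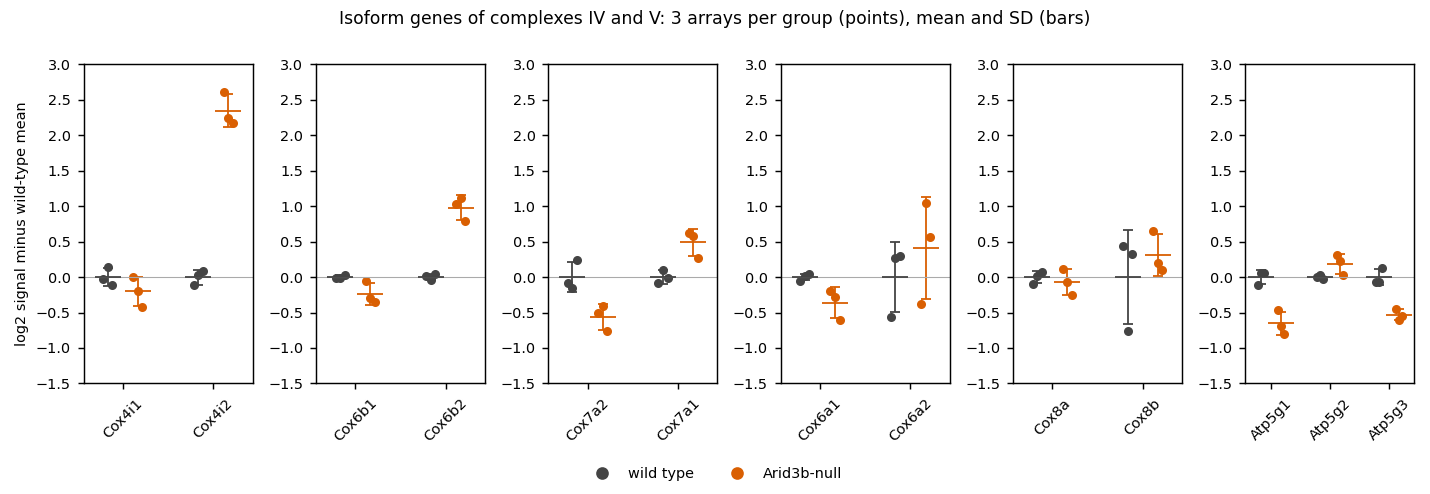
Isoform genes of complex IV and the 3 c-ring genes of ATP synthase, with 1 point per array as log2 signal minus the wild-type mean, and the group mean with SD as bars (3 wild-type arrays in grey, 3 Arid3b-null arrays in orange). Cox4i2, Cox6b2 and Cox7a1 lie above their wild-type arrays while Cox7a2, Atp5g1 and Atp5g3 lie below them, and the groups of Cox6a2 and Cox8b overlap.

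Among the widely used subunits of complex IV, Cox5a fell most. This matrix-side subunit was at 5.97, 6.0 and 6.08 in wild type and at 5.53, 5.44 and 5.26 in the Arid3b-null trunks, a 1.52-fold fall without overlap (change -0.60, SE 0.11, limma adjusted p = 0.0109). Cox7a2l, related to Cox7a2 but known as a factor that joins complexes III and IV into supercomplexes, was the only higher gene among them. It was at 4.96, 5.01 and 4.99 against 5.33, 5.38 and 5.24, a narrow spread in both groups and a change of 0.33 (SE 0.10, limma adjusted p = 0.0466). Cox7a2 and Cox7a2l lost their calls without any 1 of the 6 arrays (0.0524 to 0.0977 and 0.0646 to 0.149). Cox7a1 lost it without any 1 wild-type array or Arid3b-null replicate 1 or 2 (0.0618 to 0.118). With the slide as a block the adjusted p was 0.0534 for Cox7a1, 0.0770 for Cox7a2 and 0.0841 for Cox7a2l. Scaling arrays to their median left Cox7a1 at 0.0591 and Cox7a2l at 0.114.

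ATP synthase had the lowest median of the complexes, -0.46, with 5 of 17 members lower in limma's test (29.4%, against 12.9% of all genes). None was higher (13.6% of all genes), nor any at an unadjusted p under 0.05. The lower members belonged to the membrane part and the peripheral stalk, in a sorting made by hand with the values known and not tested. The c ring, which turns as protons pass, is made from 3 genes that encode the same mature protein. Atp5g1 was at 6.09, 6.26 and 6.25 in wild type and at 5.73, 5.51 and 5.40 in the Arid3b-null trunks, a change of -0.65 (SE 0.13, limma adjusted p = 0.0122). Atp5g3 was at 5.77, 5.77 and 5.97 against 5.39, 5.24 and 5.29, a change of -0.53 (SE 0.11, limma adjusted p = 0.0157). The remaining gene, Atp5g2, was at 7.12, 7.15 and 7.09 against 7.43, 7.35 and 7.15, so that its 3 Arid3b-null arrays lay above wild type, and its change of 0.19 (SE 0.11) did not pass.

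Among the 5 small accessory subunits of the membrane part, 2 were lower and all had changes below 0, with a median of -0.53. Atp5k, the e subunit, which helps ATP synthase to form dimers, was at 5.27, 5.25 and 5.58 in wild type and at 4.84, 4.67 and 4.48 in the Arid3b-null trunks. It fell 1.63-fold without overlap (change -0.70, SE 0.15, limma adjusted p = 0.0158), and its second probe changed by -0.83. Atp5md was at 4.55, 4.62 and 4.80 against 4.34, 4.14 and 3.86, a change of -0.55 (SE 0.15, limma adjusted p = 0.0397). Atp5j2, the f subunit, had a change of -0.53 and an adjusted p of 0.0524 just outside the threshold. Of the 4 stalk genes, Atp5j was lower (change -0.51, SE 0.13, limma adjusted p = 0.0326), at 3.97, 3.75 and 3.99 against 3.59, 3.32 and 3.28. Atp5o, which joins the stalk to the F1 head, was at 3.48, 3.40 and 4.09 in wild type replicates 1, 2 and 3 and at 3.13, 2.56 and 3.37 in the Arid3b-null replicates. The groups did not overlap, but the change of -0.64 had a wide SE of 0.27 and did not pass. With the slide as a block its adjusted p was 0.0351 in limma.

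The 5 genes of the F1 head, where ATP is made, had a median change of -0.08 and none passed limma's test, with 1 lower at an unadjusted p under 0.05. The catalytic beta subunit gene Atp5b was at 6.69, 6.68 and 6.68 in wild type and at 6.64, 6.63 and 6.55 in the Arid3b-null trunks, a change of -0.08 (SE 0.09). Its arrays were tight in both groups. Atp5a1, for the alpha subunit, had a missing spot on wild type replicate 2 and a change of -0.46 (SE 0.26) over 2 wild-type and 3 Arid3b-null arrays. Atp5md lost its call without any 1 wild-type array or Arid3b-null replicate 2 or 3 (0.0807 to 0.103), and Atp5j when either replicate 1 or 3 of wild type, or replicate 2 or 3 of Arid3b-null, was left out (0.0858 to 0.108). With the slide as a block, Atp5md was at 0.0761.

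Across complexes, a set of genes for redox, catalytic and F1 subunits was put beside the rest. This grouping of complexes I, II, III and V was also made by hand with the values known, and it was not tested. Of these 16 genes, 1 was lower (Sdhb, 6.25%, against 12.9% of all genes) and none higher (13.6% of all genes). At an unadjusted p under 0.05, 4 were lower, and the median change was -0.18. Of the other 68 members, 18 were lower (26.5%) and 5 higher (7.35%), with a median of -0.34. These 68 held all of complex IV, the redox carrier Cycs and the complex II anchors Sdhc and Sdhd. Cycs and Sdhd were among the lower ones, so the counts depend on where such genes are placed.

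**Figure D4:**
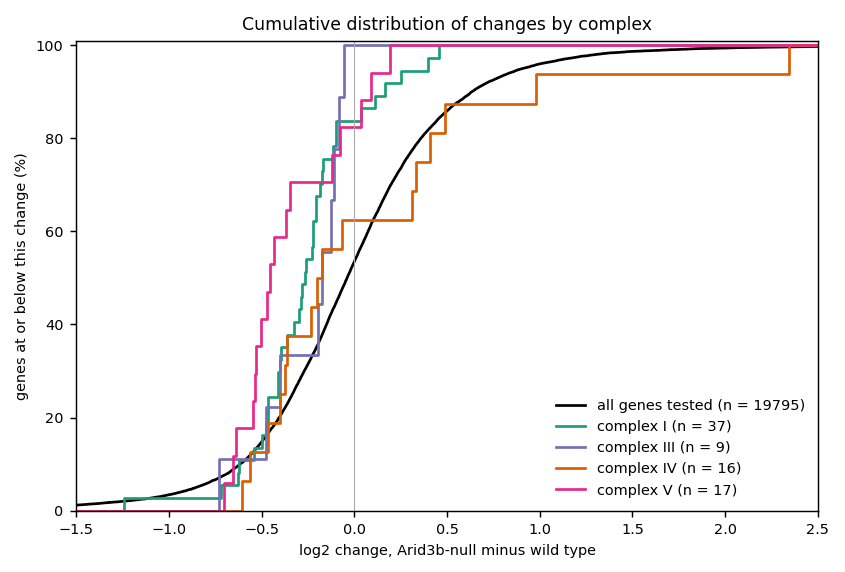
Cumulative distribution of the log2 change, as the percentage of genes at or below each change, for complexes I, III, IV and V and for all 19795 genes tested, with the horizontal axis shown from -1.5 to 2.5. Complexes I, III, IV and V cross the middle of the vertical axis to the left of all genes. Their medians are -0.26, -0.18, -0.19 and -0.46 against -0.04, and complex IV also has a tail to the right that ends at Cox4i2.

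Probes of the same gene mostly moved together. Of 23 members with more than 1 tested probe, 22 had probes of a single sign and 1, Atp5c1, had both signs with no probe passing. In 4 members a dimmer probe passed while the brightest did not, namely Atp5j2, Uqcr10, Uqcrb and Ndufv3. Ndufv3, an accessory subunit with splice forms, was the member where this difference was widest. Its brightest probe changed by 0.40 (SE 0.17, adjusted p = 0.134), with overlapping groups. The other probe was at -0.10, 0.23 and -0.05 in wild type and at 1.11, 1.15 and 1.16 in the Arid3b-null trunks, a change of 1.12 (SE 0.12, limma adjusted p = 0.0021 over all probes). Ndufv3 was singled out after its values were seen.

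Assembly factors build the complexes without being part of them. Of 45 tested genes listed as assembly factors, 10 were lower and none higher in limma's test, with 1 higher at an unadjusted p under 0.05. The list for ATP synthase also holds Atpif1, an inhibitor of the enzyme. Of all genes, 12.9% were lower and 13.6% higher. For complex I, 4 of 14 were lower, led by Ndufaf2, a chaperone of late assembly, at 2.02, 1.89 and 2.12 in wild type and 1.07, 0.74 and 0.67 in the Arid3b-null trunks (change -1.18, SE 0.14, limma adjusted p = 0.0026). Ndufaf4 followed with -0.67. For complex II, 1 of 4 was lower, Sdhaf1, which helps to insert the iron-sulphur clusters of Sdhb (-0.78). For complex IV, 4 of 18 were lower, led by Cox19 (-0.97), linked to copper supply, and Cox20 (-0.80), which handles the mitochondrially encoded subunit 2. None of 5 passed for complex III, where Uqcc2 changed by -0.32 and was lower at an unadjusted p under 0.05. For ATP synthase 1 of 4 was lower, Atpaf1 (-0.41, adjusted p = 0.0492). Atpaf1 lost this call in 12 of 14 alternatives other than normexp with the local background, where it was at 0.506. Without any 1 wild-type array or Arid3b-null replicate 1 or 3 its adjusted p was 0.0817 to 0.131, and under quantile normalization it was 0.289. With normexp on each array's median background its change was -0.03 (adjusted p = 0.910).

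The regulators of mitochondrial biogenesis and the mitochondrial DNA factors showed no common direction. Of 17 tested, 3 were lower (17.6%, against 12.9% of all genes) and 1 was higher (5.88%, against 13.6%). The median was 0.06. Nrf1, which encodes the factor whose motif is marked above, was at 1.20, 1.35 and 1.36 in wild type and at 0.60, 0.65 and 0.62 in the Arid3b-null trunks on its brightest probe. The groups lay far apart (change -0.68, SE 0.10, limma adjusted p = 0.0049). Its other probes disagreed, at -0.70 and 0.49, both past the threshold over all probes, and the mean of its probes gave -0.30 (adjusted p = 0.0853). Polg2, the accessory subunit of mitochondrial DNA polymerase, rose by 0.62. Gabpa (-0.06), Yy1 (0.06), Tfam (-0.05) and the coactivator Ppargc1a (-0.09) did not pass.

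Mitochondrial genes linked to low oxygen were mostly higher. Of 10 tested, 6 were higher (60%, against 13.6% of all genes) and 2 lower (20%, against 12.9%), with a median of 0.57. Ndufa4l2, a paralogue of the subunit Ndufa4 that is known as a hypoxia-induced gene and is not counted as a member, was at -1.12, -1.18 and -1.11 in wild type and at 3.22, 3.21 and 2.68 in the Arid3b-null trunks. This was an 18-fold rise without overlap (change 4.17, SE 0.17, limma adjusted p = 0.00013), while Ndufa4, counted here with complex I by its symbol but now placed in complex IV, changed by -0.40 and did not pass. Pdk1, the kinase that restrains pyruvate dehydrogenase, rose 4.07-fold. In pyruvate dehydrogenase and the citric acid cycle, 3 of 17 were lower (17.6%) and 2 higher (11.8%), shares near the 12.9% and 13.6% of all genes. They were led by Pcx, pyruvate carboxylase (change 0.78), and Ogdh, a subunit of oxoglutarate dehydrogenase (change -0.55). Ogdh lost the call without Arid3b-null replicate 2 or 3 (limma adjusted p = 0.0525 each). Among carriers, pores and import genes 2 of 14 were lower (14.3%, near the 12.9% of all genes), Timm23 of the inner-membrane import channel (-0.60) and the outer-membrane pore Vdac3 (-0.52). Vdac3 lost it without any 1 wild-type array or Arid3b-null replicate 1 or 3 (0.0511 to 0.0621).

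Markers of some cell types were also lower in the Arid3b-null trunks. All 8 markers of early neurons were lower. Their summed signal, relative to the 75th percentile of the array, was 9.87 to 12.0 in wild type and 1.85 to 2.23 in the Arid3b-null trunks. Such a sum over the genes of a list is weighted toward its brightest probes. All 10 markers of primitive erythroid cells had changes below 0 and 4 of them were lower (40%, against 12.9% of all genes). Their summed signals were 578 to 763 against 460 to 549. None of 8 cardiac muscle markers passed limma's test, 1 being lower at an unadjusted p under 0.05, and their summed signals were 25.6 to 40.3 against 12.7 to 34.6. Of 6 endothelial markers 1 was higher (16.7%, against 13.6% of all genes), with summed signals of 6.39 to 9.60 against 5.44 to 7.12. None of 8 trunk and forelimb markers passed, at an unadjusted p under 0.05 either, with 25.8 to 28.2 against 25.3 to 29.5, and none of the 3 tested forebrain and midbrain markers did, with 0.196 to 0.260 against 0.159 to 0.421. Every tested marker was well above background on all 6 arrays, except Otx2 of the forebrain list, which was so on 2 of 3 Arid3b-null arrays. The part of these cell types in the lower respiratory chain signals was not tested.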

How the data were processed

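Per the labels' protocols, the 6 arrays were each hybridised with Cy3-labelled RNA amplified from the total RNA of 1 pool. Per the file headers, the deposited intensity values were extracted with Agilent's Feature Extraction, version 10.7.3.1 (protocol GE1_107_Sep09, design 026655, build mm9), and the processed signal had its background subtracted by that software. The authors' deposited value table holds log2 values of 24181 probes, and how they were normalized is not stated there. Its column medians are 6.77 on all 6 arrays, so the arrays had been matched, and it was set against each array's own log2 signal (r = 0.9987 to 0.9999). It served as an alternative and holds 46 of the 84 tested members.

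Values were log2 processed signals minus the 75th percentile of the 43020 non-control spots of the array. Between 100 and 169 spots an array were marked as outliers and left out, and repeated spots of a probe were averaged. Gene symbols came from RefSeq (assembly GRCm38.p6) through probe accessions, which named 26424 of 39429 probes (67.0%). The files themselves carry no symbols, so probes with no match could not be counted as members. Testing required a signal well above background on 3 of 3 arrays in 1 or both groups (24423 probes), and each gene was represented by its brightest tested probe. Groups were compared with limma 3.58.1 in R 4.3.3 (lmFit and eBayes), with Benjamini-Hochberg adjustment over all genes, and the code was tested on simulated data. With 3 arrays per group, their number limits the precision.

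Named members are those that passed, the largest rise and fall in each complex (1 member is not reported here by name or plotted singly, but is in the counts), the isoform pairs, members whose probes disagree in the sign of a passing change, and the 2 genes of each pathway list with the smallest adjusted p among those that passed, or the 1 with the smallest p. Outside this rule, Ndufs8, Ndufv1, Ndufs1, Ndufv3, Ndufa4, Sdhc, Uqcrfs1, Cyc1, Uqcrb, Atp5a1, Atp5b, Atp5c1, Atp5j2, Atp5o, Gabpa, Yy1, Tfam and Ppargc1a were chosen after their values were seen. The members, lists and motifs were chosen with earlier results of these data known, and the sorting into core, accessory and isoform subunits was made by hand with values seen. Replicate numbers coincide with slides. Over all genes, deviations from the group means correlated at 0.163, 0.387 and 0.278 for the same-numbered pairs. Pairs of different numbers were at -0.346 to 0.117, the highest for wild type replicate 3 with Arid3b-null replicate 1. The numbers were therefore taken to pair the samples. The main fit did not use this pairing. It entered only in the alternative with the slide as a block, where 9 of the 24 member calls were lost and 1 was gained. Alternatives changed the scaling, the normalization, the background correction, the filter, the choice of probe, the slide as a block and the arrays included.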

Additional observations from a re-analysis of the deposited data

How the results depend on the processing

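The median change of the members stayed below 0, between -0.33 and -0.21, under every alternative except normexp with the local background. In that setting 12 spots (3 on wild type replicate 2 and 9 on replicate 3) lay far below their background, the all-gene median moved to -0.22, and limma called 0 genes lower and 2 higher (885 lower and 1016 higher at an unadjusted p under 0.05). Members called lower and higher were 0 and 0, with medians of 0.016 over all members, 0.041 for complex I, 0.031 for complex II, 0.16 for complex III, 0.0010 for complex IV and -0.12 for complex V. Single genes turned there to 0.16 (Cox4i1), -0.34 (Cox6a2), 0.018 (Cox6b1), 0.24 (Cox8a), -0.83 (Cox8b), 0.31 (Uqcr10) and 0.0090 (Uqcc2). With no filter, 998 genes were lower and 1288 higher, and 2 and 2 members (Ndufab1, Cycs, Cox4i2 and Cox6b2). The deposited table, with 46 of the members, gave 8 lower, against 14 of the same members in the main values, and a complex IV median of 0.34, where the 11 complex IV genes it holds had 0.31 in the main values. It ended 7 of 19 calls (Atp5j, Atp5md, Cox7a2, Cox7a2l, Ndufb6, Sdhb and Sdhd; adjusted p 0.0546 to 0.105). Median scaling left 3 members higher and ended the calls of Cox7a1, Cox7a2l, Sdhb and Sdhd, and quantile normalization those of Atp5j, Cox7a2, Ndufa1, Sdhb and Sdhd. The replicate block left 14 members lower and 2 higher, 9 calls were lost and 1 gained (Atp5o), each given with its gene above, and among the other genes named it ended the call of Atpaf1 alone. Quantile normalization moved complex II to -0.21 and complex III to -0.085, and the mean of a gene's probes moved complex III to -0.33. Uqcr10 turned to 0.044 under quantile normalization and 0.048 in the deposited table. Leaving out 1 array at a time gave 1205 to 2038 genes lower and 1660 to 2047 higher, 7 to 20 members lower and 2 to 4 higher, and complex III medians of -0.24 to -0.10. It ranged from -0.16 to 0.021 for Cox8a, from -0.066 to 0.53 for Cox8b and from -0.36 to 0.096 for Uqcr10. Normexp with the local background but without the 12 spots gave 24 members lower and 4 higher, with a median of -0.26. The cause of the other shifts was not tested, except that the filter sets how many genes are tested and leaving out an array how many samples. Calls of members near the threshold are limited by 3 arrays per group.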
